A study of Mus musculus with 12 samples.

Results

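Epidermal kallikreins are secreted serine proteases of stratified epithelium, and they were followed here with their inhibitor and an upstream activator in mouse oral tumours. The 10 genes were chosen by name: the 8 shedding proteases Klk5, Klk6, Klk7, Klk8, Klk10, Klk11, Klk13 and Klk14, the inhibitor gene Spink5 and the activator gene St14. They were 10 of 23102 genes measured, and all 10 had probesets with 1 gene symbol, 109 probesets in all. The KHR tumours (n = 6) expressed RAS and a transgene written iHPV, of which one label names HPV E6. The KR tumours (n = 6), against which they were set, expressed RAS alone by their labels. All 12 tumours came from C57BL/6 × FVB F1 mice given tamoxifen by intraperitoneal injection, and each gave total RNA for 1 Affymetrix Mouse Gene 2.0 ST array. The sources do not state which promoter drives the transgenes, how old the mice were, their sex, or whether each tumour came from its own mouse. The p-values therefore reflect the scatter of these 12 tumours, which may be partly technical, and they take each tumour as independent. If tumours shared a mouse they would not be independent, and the p-values could be too small.

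In the outer layers of squamous epithelium, kallikreins cut the corneodesmosomes that hold corneocytes together, and cells are then shed. KLK5 is known from human skin to activate other kallikreins, KLK7 and KLK14 among them, while the Spink5 product LEKTI, released from the same cells, blocks several of these enzymes. Loss of LEKTI causes Netherton syndrome, in which the barrier breaks down, and in mice lacking Spink5 the membrane protease matriptase, encoded by St14, acts upstream of the kallikreins. The kallikrein genes lie side by side on mouse chromosome 7.

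Klk6 and Klk7, neighbours in that cluster, rose in KHR tumours, Klk6 by 2.80-fold and Klk7 by 2.13-fold. The other 6 proteases, Spink5 and St14 did not pass the test. Thus 2 of the 10 genes rose and 0 fell in limma at an adjusted p under 0.05, while 2.71% of all genes rose and 1.03% fell (3.74% in either direction). Without adjustment, limma p was under 0.05 for 3 of the 10 that were higher (Klk5 was the third) and for 2 that were lower (Klk11 and St14). The share of all genes under 0.05 without adjustment in limma was not counted. The adjusted shares above are therefore no baseline for this or later unadjusted counts. In another test, the exact rank permutation test, 3051 of 23102 genes had an unadjusted p under 0.05. The median change of the 10 was 0.11 on the log2 scale, against 0.0045 over all genes, with a range from -0.41 for Klk11 to 1.49 for Klk6.

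Promoter windows of RefSeq (GRCm38.p6), each of 300 bases around a gene's annotated start, are shown for the genes that rose and for their neighbour Klk8, which did not pass the test. The windows available covered 8 of the 10 genes, the proteases, and not Spink5 or St14. Capitals mark TTAAAA and CACCC on either strand (GGGTG is CACCC read from the other strand). Klk6 has a pair of annotated starts.
Klk7, chr7:43811044-43811343, + strand: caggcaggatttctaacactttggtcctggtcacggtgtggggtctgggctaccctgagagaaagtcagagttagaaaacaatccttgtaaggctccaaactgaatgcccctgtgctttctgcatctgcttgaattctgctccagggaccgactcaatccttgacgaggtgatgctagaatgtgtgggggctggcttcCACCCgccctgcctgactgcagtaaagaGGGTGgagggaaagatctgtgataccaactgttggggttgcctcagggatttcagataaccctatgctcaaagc
Klk6, chr7:43824294-43824593, + strand: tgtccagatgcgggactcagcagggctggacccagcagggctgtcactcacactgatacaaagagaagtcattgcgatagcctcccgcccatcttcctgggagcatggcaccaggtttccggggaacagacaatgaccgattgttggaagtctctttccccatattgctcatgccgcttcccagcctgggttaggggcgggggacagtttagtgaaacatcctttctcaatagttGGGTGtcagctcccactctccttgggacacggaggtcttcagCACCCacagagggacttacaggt
Klk6, chr7:43825200-43825499, + strand: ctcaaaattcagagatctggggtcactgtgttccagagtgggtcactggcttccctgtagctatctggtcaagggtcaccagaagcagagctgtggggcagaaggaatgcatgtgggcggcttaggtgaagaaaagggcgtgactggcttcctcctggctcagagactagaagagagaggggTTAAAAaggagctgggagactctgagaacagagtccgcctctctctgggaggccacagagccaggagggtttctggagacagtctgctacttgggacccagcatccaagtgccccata
Klk8, chr7:43797327-43797626, + strand: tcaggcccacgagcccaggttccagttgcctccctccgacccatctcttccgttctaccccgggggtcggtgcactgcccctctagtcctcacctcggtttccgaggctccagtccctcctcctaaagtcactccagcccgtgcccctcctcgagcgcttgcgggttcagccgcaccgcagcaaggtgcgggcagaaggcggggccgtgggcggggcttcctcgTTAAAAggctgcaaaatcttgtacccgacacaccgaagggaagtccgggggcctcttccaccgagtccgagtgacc
The windows of Klk7 and of the first Klk6 start each held 2 CACCC boxes, the letters bound by KLF factors, and the second Klk6 window and the Klk8 window held 0. Windows of proteases that did not pass the test held as many or more: 3 for Klk13, 3 for the first Klk11 start, 2 for Klk10, 2 for Klk5 and 1 for Klk14, with 0 for the second Klk11 start. CACCC stood in 57.5% of all 32851 windows of the same length. The run TTAAAA stood 68 bases before the second Klk6 start and 26 bases before the Klk8 start, also in windows of Klk10 and Klk11, and in 19.2% of all windows. TATAAA (13.6% of all windows), TGANTCA, the AP-1 motif (7.81%), and AACNGGTT, a grainyhead motif (2.09%), were searched on both strands and matched none of the 10 windows of the 8 proteases. GGAATG, a TEAD motif (14.7%), matched the second Klk6 window, and the E-box CANNTG (72.3%) matched all 4 windows printed. No match overlapped another in the 4 windows. The motifs were picked with the expression values and sequences in view, and a match is a description only.

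The RNA carried strong signal of keratinocyte genes. Krt5 and Krt14, keratins of the basal layer, averaged 13.17 ± 0.14 and 13.08 ± 0.17 in KHR tumours and 13.19 ± 0.12 and 12.98 ± 0.06 in KR tumours (log2 intensity, SD, n = 6 each). The mean of 10 basal keratinocyte genes lay between 9.91 and 10.03 in KHR tumours and between 9.78 and 10.06 in KR tumours, and limma called 0 of them (1 higher and 0 lower at an unadjusted p under 0.05). Of 16 suprabasal and cornifying genes, 1 rose and 5 fell (Krt13, Lor, Sprr3, Tgm1 and Tgm3), while 2.71% of all genes rose and 1.03% fell. At an unadjusted p under 0.05, 1 of the 16 was higher and 9 were lower. The mean of the 16 was 11.44 to 11.75 in KHR tumours against 11.72 to 11.98 in KR tumours. Krt13, a keratin of the oral mucosa, fell by 1.26 ± 0.22 on the log2 scale, and Ivl, the involucrin gene, rose by 1.59 ± 0.30 (SE; limma, adjusted p = 0.00571 and 0.0096). In whole tumours, fewer cells of a type and less RNA per cell cannot be told apart. The mean of 9 salivary gland markers was 4.30 to 4.53 in KHR tumours and 4.35 to 4.53 in KR tumours. Of these markers, 8 were dimmer than the median gene (4.98), among them Klk1, the glandular kallikrein, at 4.03 ± 0.25 in KHR tumours and 3.85 ± 0.27 in KR tumours. Of 10 fibroblast genes, 0 rose and 1 fell, the collagen gene Col1a2, at 9.39 ± 0.27 in KHR tumours and 10.19 ± 0.39 in KR tumours (SD, n = 6 each; limma, adjusted p = 0.022). Of 12 skeletal muscle genes 0 were called (0 at an unadjusted p under 0.05), yet 10 had positive changes, with a median of 0.62. Their mean ran from 5.77 to 8.25 in KHR tumours, with KHR 5 the highest, and from 5.71 to 7.10 in KR tumours. Of 9 sebaceous gland and hair follicle genes 0 were called (3 higher and 0 lower at an unadjusted p under 0.05), and their mean ran from 6.23 to 6.99 in KHR tumours and from 5.80 to 6.77 in KR tumours. The part of these shifts, and of that in the cornifying genes, in the results for the kallikreins was not tested. The median probeset of an array was at 5.62 to 5.75.

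Klk6 encodes a trypsin-like protease, also called neurosin. Its log2 intensity had a lowest, median and highest value of 11.58, 11.92 and 12.42 in KHR tumours, and of 9.56, 10.62 and 10.82 in KR tumours. Every KHR tumour lay above every KR tumour, and KR 2 was the lowest of all 12. The means were 11.95 ± 0.33 in KHR tumours and 10.46 ± 0.48 in KR tumours (SD, n = 6 each), a log2 difference of 1.49 ± 0.21 (SE; limma, adjusted p = 0.00141; 95% interval 1.03 to 1.94). Leaving out each tumour in turn gave differences from 1.31, without KR 2, to 1.56, with adjusted p up to 0.00484.

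Klk7 encodes the chymotrypsin-like enzyme of the stratum corneum, which cuts corneodesmosin and desmocollin 1. It reached 11.47, 12.16 and 12.46 in KHR tumours (lowest, median, highest) and 10.72, 10.94 and 11.24 in KR tumours. The groups did not overlap, and 5 of the 6 KHR tumours stood at 12.03 or above, with KHR 2 at 11.47. The means were 12.08 ± 0.33 in KHR tumours and 10.98 ± 0.20 in KR tumours (SD, n = 6 each), a log2 difference of 1.09 ± 0.15 (SE; limma, adjusted p = 0.00125; 95% interval 0.77 to 1.41). All KHR arrays lay above all KR arrays for 2 of the 10 genes, these 2, and for 1.83% of all genes (2.67% of genes separated the groups in either direction). In an exact rank permutation test, two-sided, both had p = 0.00216, the smallest that 6 against 6 tumours can give, and an adjusted p of 0.0810, the smallest of any gene there.

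**Figure D1:**
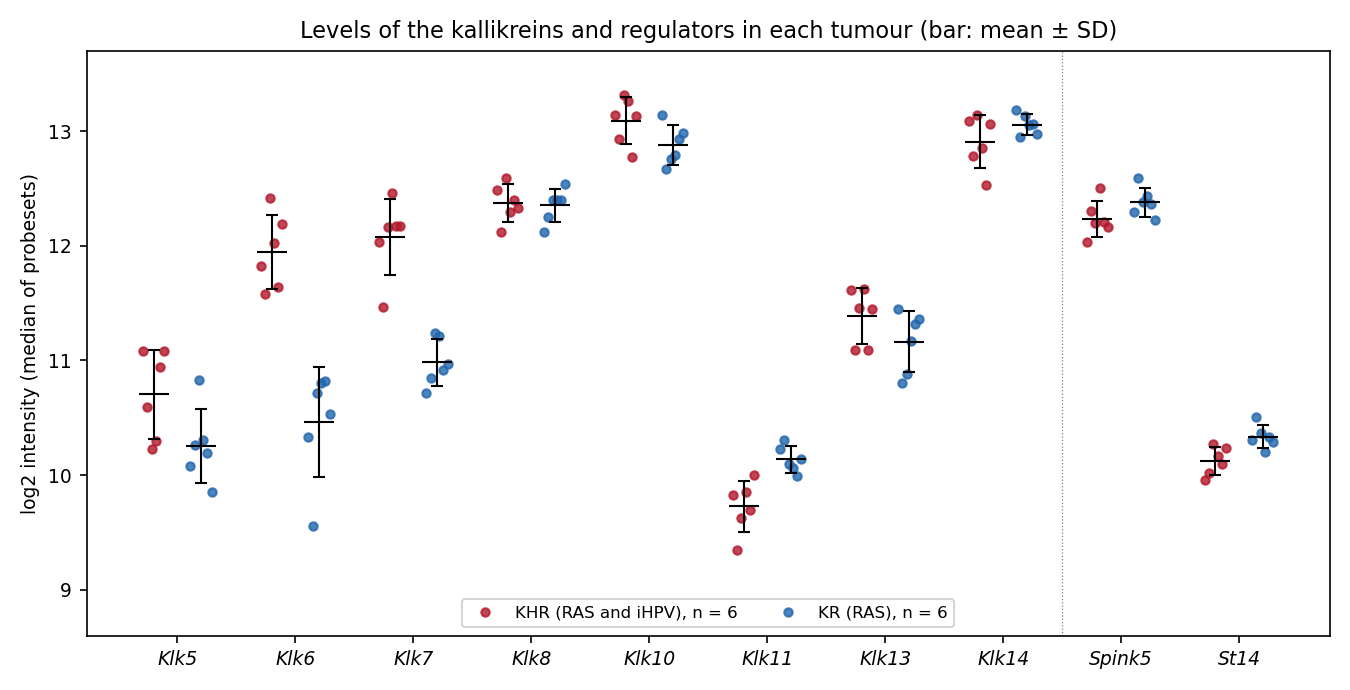
Log2 intensity of each of the 10 genes in every tumour, KHR tumours in red on the left of each pair and KR tumours in blue on the right, with bars for the mean and SD (n = 6 each). Klk6 and Klk7 separate the groups, and the other 8 genes overlap between them.

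Klk5 encodes the trypsin-like protease thought to start the activation cascade in human skin. Its values were 10.23, 10.76 and 11.08 in KHR tumours and 9.85, 10.22 and 10.83 in KR tumours (lowest, median, highest). Of the KHR tumours, 3 lay above every KR tumour and the others lay among them. The log2 difference of 0.45 ± 0.19 (SE) did not pass (limma, adjusted p = 0.241), with a 95% interval from 0.05 to 0.85.

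Klk8, the gene of neuropsin, had values of 12.12, 12.36 and 12.59 in KHR tumours and 12.12, 12.40 and 12.54 in KR tumours, and the groups covered nearly the same range. Its log2 difference was 0.02 ± 0.10 (SE; limma, adjusted p = 0.962), with an interval from -0.19 to 0.23, which reaches no more than 1.17-fold; the sign of this difference turned with the probeset summary and the scaling. Klk14, which encodes a trypsin-like protease that cuts desmoglein 1, ran from 12.53 to 13.14 in KHR tumours and from 12.95 to 13.18 in KR tumours. It differed by -0.15 ± 0.11 (adjusted p = 0.559). KHR 5 had the lowest Klk14 value, and 3 KHR tumours lay below all KR tumours.

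Klk10 and Klk13, further members of the family, were at 13.09 ± 0.20 and 11.39 ± 0.24 in KHR tumours and at 12.88 ± 0.17 and 11.16 ± 0.27 in KR tumours (SD, n = 6 each). Their differences of 0.21 ± 0.11 and 0.22 ± 0.14 (SE) did not pass (limma, adjusted p = 0.404 and 0.495). The intervals, -0.03 to 0.45 and -0.08 to 0.52, lie below the measured change of Klk7. The dimmest Klk10 probeset, at 10.97 in KHR tumours and 10.29 in KR tumours, had a change of 0.68. Its other probesets, all brighter, had changes of -0.06 to 0.42. Whether high signal narrows the measured changes was not tested.

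Klk11, which encodes another trypsin-like member, lay on the other side of 0. Its lowest and median values were 9.35 and 9.77 in KHR tumours against 9.99 and 10.12 in KR tumours. Of the 6 KHR tumours, 5 were below every KR tumour, and KHR 6, the highest, lay just above the lowest KR value. The log2 difference of -0.41 ± 0.11 (SE) missed the threshold (limma, adjusted p = 0.0537). It passed without KHR 6 (adjusted p = 0.0383) and when genes below the median level were left out of the test (adjusted p = 0.0482), and averaging probesets gave -0.21 (adjusted p = 0.142).

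Neither regulator passed the test. Spink5 had values of 12.03, 12.20 and 12.50 in KHR tumours and 12.22, 12.37 and 12.59 in KR tumours (lowest, median, highest), and 4 KHR tumours lay below every KR tumour. The log2 difference was -0.15 ± 0.09 (SE; limma, adjusted p = 0.513), and its interval of -0.35 to 0.06 covers 0.79-fold to 1.04-fold. St14 had values of 9.96, 10.13 and 10.27 in KHR tumours against 10.20, 10.32 and 10.51 in KR tumours, again with 4 KHR tumours below all KR tumours. It differed by -0.21 ± 0.08 (adjusted p = 0.231; interval -0.39 to -0.03).

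Set against Spink5 in the same tumour, Klk6 and Klk7 stood higher in KHR tumours. With the KR mean set to 0, the log2 difference Klk6 minus Spink5 was 1.20 to 2.14 in KHR tumours and -1.11 to 0.37 in KR tumours, and the mean shift was 3.10-fold. For Klk7 minus Spink5 the ranges were 0.57 to 1.41 in KHR tumours and -0.34 to 0.26 in KR tumours, a mean shift of 2.36-fold. Here 5 KHR tumours lay between 1.35 and 1.41, and KHR 2 was the low one at 0.57. For the other 6 proteases the groups overlapped, with mean shifts from -0.26 for Klk11 to 0.60 for Klk5. Against St14 the mean shifts were 1.69 for Klk6 and 1.30 for Klk7, with no overlap between groups. Because array signals of different genes have no common scale, only the shift between groups is read from these differences, and no test was made of them. Each mean shift is the change of the protease minus the uncalled change of the regulator. It restates the changes given above and is no separate result.

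**Figure D2:**
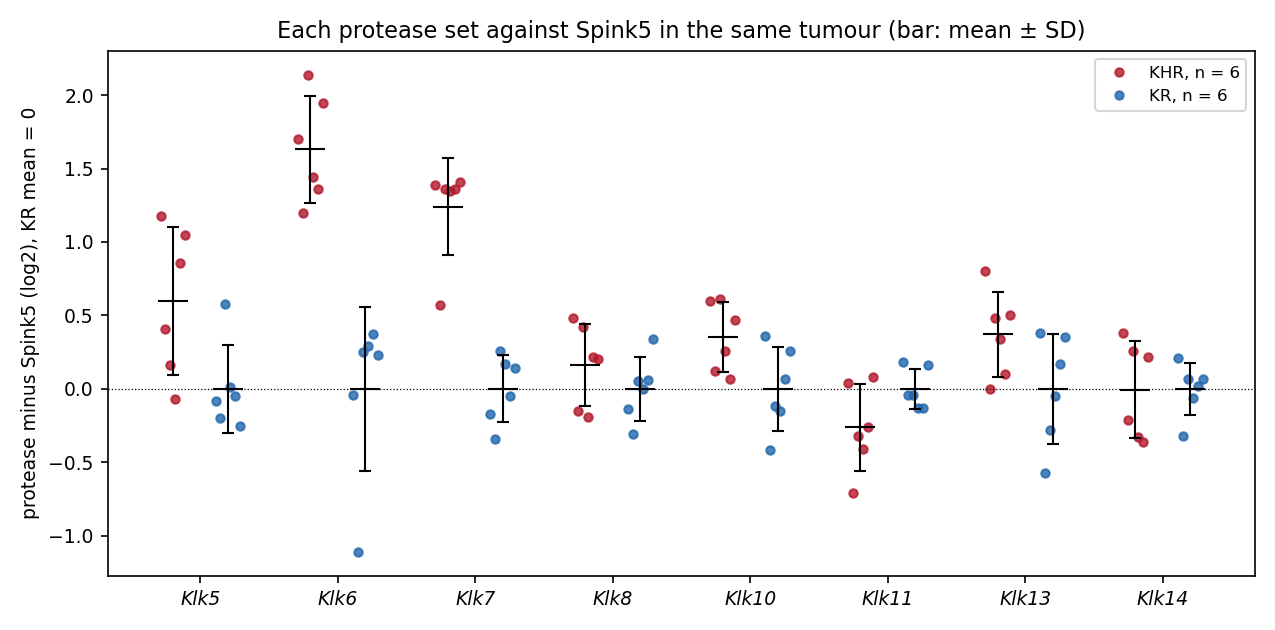
Log2 difference between each protease and Spink5 in the same tumour, with the KR mean of each protease set to 0; KHR tumours are red (left of each pair), KR tumours blue, bars are mean ± SD (n = 6 each). Klk6 and Klk7 lie above all KR tumours in every KHR tumour, with KHR means of 1.63 and 1.24.

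Within a group, the proteases showed no relation to either regulator that held after adjustment. Each of the 8 proteases was correlated with Spink5 and with St14, and Spink5 with St14, which made 17 relations in each group of 6 and 34 in all. After Benjamini-Hochberg adjustment within a group, 0 passed in the exact permutation test of Pearson's r (lowest adjusted p = 0.826 in KHR tumours and 0.425 in KR tumours), and 1 in each group had an unadjusted p under 0.05. In KHR tumours this was Klk6 with St14 (r = 0.84, exact permutation p = 0.0486, adjusted p = 0.826; Spearman's rho = 0.83, p = 0.0583, adjusted p = 0.822; r = 0.96 without the 2 tumours farthest from the St14 median). In KR tumours it was Klk10 with Spink5 (r = -0.82, exact permutation p = 0.0431, adjusted p = 0.425). Its Spearman's rho was -0.89 (exact permutation p = 0.0333, adjusted p = 0.283), and r was -0.91 without the 2 tumours farthest from the Spink5 median. Neither r kept its sign over all 6 tumours of the other group. Klk6 with St14 in KR tumours had r = -0.80 (exact permutation p = 0.0792), or 0.62 without the 2 farthest tumours. Klk10 with Spink5 in KHR tumours had r = 0.14 (exact permutation p = 0.7875), or -0.39 without the 2 farthest.

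On chromosome 7 (GRCm38.p6), the kallikreins followed lie in the order Klk14, Klk13, Klk12, Klk11, Klk10, Klk9, Klk8, Klk7, Klk6, Klk5, Klk4, Klk15 and Klk1. This is not a full list of the genes in the cluster. Only the stretch between Klk7 and Klk6 was searched for others, and 0 other annotated genes start there. The changes of Klk8, Klk7, Klk6 and Klk5 were thus 0.02, 1.09, 1.49 and 0.45 in gene order. Klk12 and Klk9, of the same cluster but outside the chosen 10, differed by 0.49 ± 0.14 and 0.44 ± 0.17 (SE; limma, adjusted p = 0.0662 and 0.211). Klk12 was at 10.83, 11.44 and 11.73 in KHR tumours and at 10.68, 10.90 and 11.10 in KR tumours (lowest, median, highest), and 5 KHR tumours lay above all KR tumours; it passed without KHR 5, the low one (adjusted p = 0.00973), and under 3 other alternatives. Klk4, Klk15 and Klk1 had mean levels below the median of all genes in both groups. Of these 5 other kallikreins, 0 passed (2 higher and 0 lower at an unadjusted p under 0.05).

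**Figure D3:**
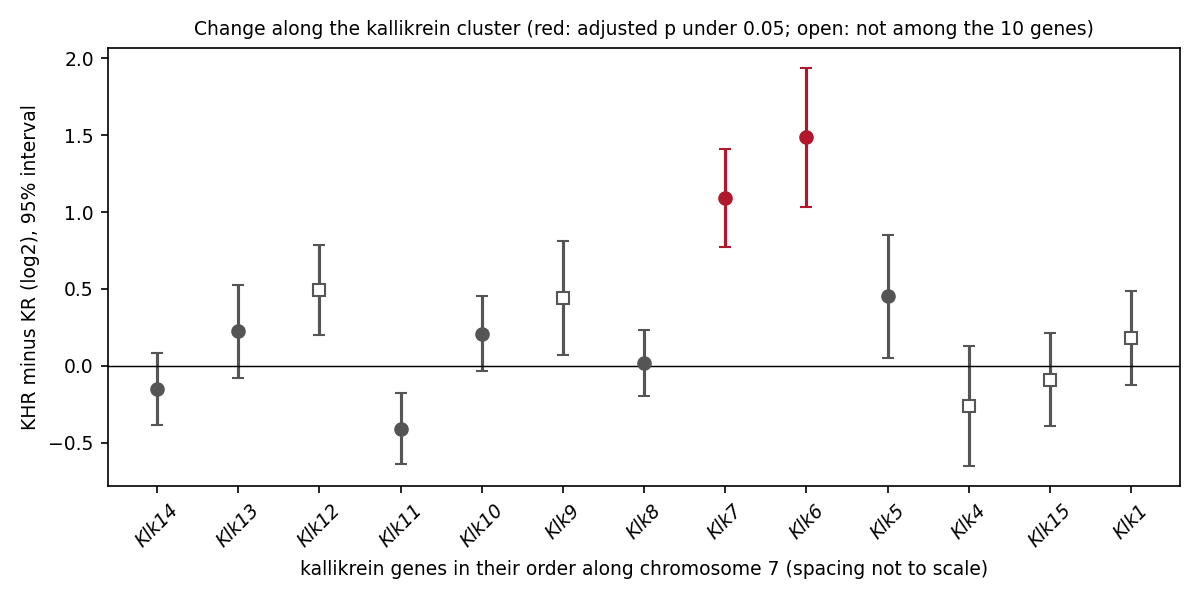
Log2 difference, KHR minus KR, with its 95% interval for 13 kallikrein genes in their order along mouse chromosome 7 (spacing not to scale). Red marks an adjusted p under 0.05 and open squares mark genes outside the chosen 10; the neighbours Klk7 and Klk6 stand at 1.09 and 1.49, next to Klk8 at 0.02.

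The probesets of a gene were also tested one by one; which exon each one reads was not analysed here. Of the 109 probesets of the 10 genes, 15 rose and 0 fell, against 0.721% higher and 0.301% lower (1.02% in either direction) among all 233753 probesets. All 15 belonged to Klk6 (8 of 11) and Klk7 (7 of 8). Klk7 changes ran from 0.46 to 1.23, all positive. Klk6 changes ran from -0.30 to 1.65, and the pair that did not follow the rest were dim, at 5.09 and 3.65 in KHR tumours against 4.80 and 3.95 in KR tumours. The third Klk6 probeset short of the threshold was bright, at 13.89 in KHR tumours and 13.16 in KR tumours, with a change of 0.73 (adjusted p = 0.0990). With all probesets averaged, dim ones included, the Klk6 change was 1.04 in place of 1.49, and the Klk7 change 0.89 in place of 1.09, both still called.

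Among the other members, 0 of 90 probesets passed in limma (15 at an unadjusted p under 0.05). Their directions were nonetheless uniform within several genes. All 7 probesets of Klk5 and all 6 of Klk13 were higher, all 6 of Klk14 were lower, and 23 of 25 of Spink5 and 19 of 21 of St14 were lower. For Klk11, 9 of 10 were lower, from -0.59, and 1 was higher at 0.47. Probesets of a gene share the same RNA, so these counts are not replicates.

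**Figure D4:**
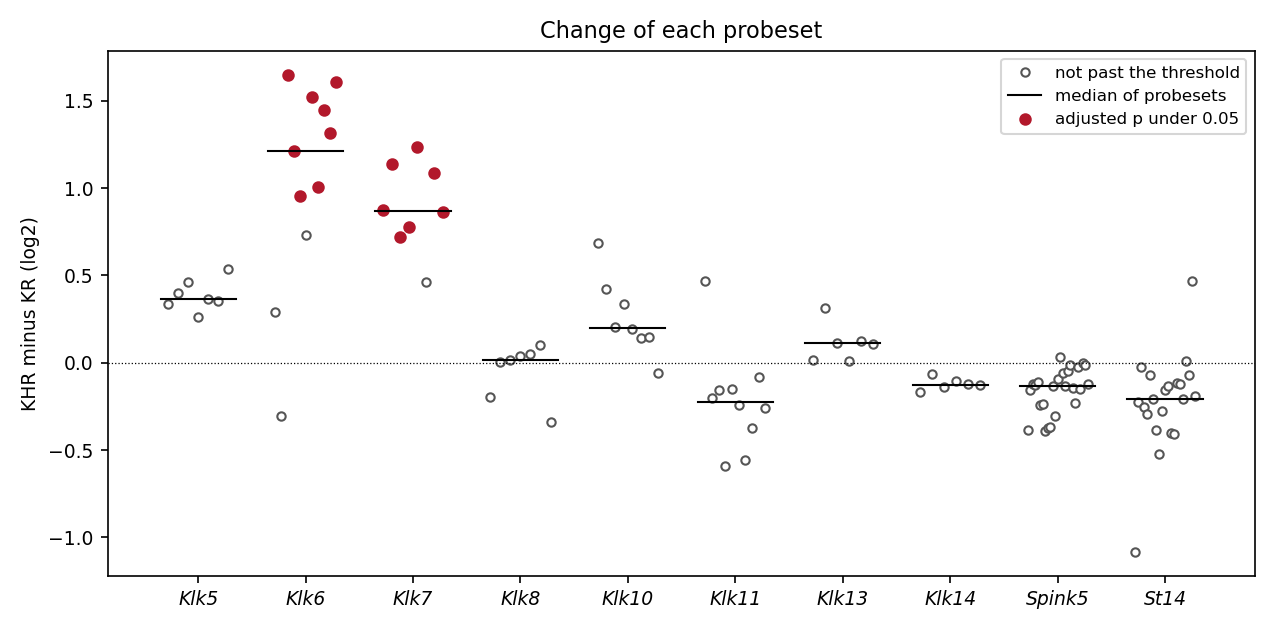
Log2 difference, KHR minus KR, of each of the 109 probesets by gene; filled red points have an adjusted p under 0.05 over all probesets and black lines are medians over a gene's probesets. The filled points all belong to Klk6 (8 of 11) and Klk7 (7 of 8).

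Other genes of the protease cascade were taken from 5 lists with 49 measured genes. Of these, 4 rose and 0 fell, while 2.71% of all genes rose and 1.03% fell. All 4 came from the lists of proteases, which held most of the 49 genes. Ctsl, which encodes the lysosomal protease cathepsin L, reached 11.44, 11.93 and 12.32 in KHR tumours and 10.36, 10.76 and 10.92 in KR tumours (lowest, median, highest), with no overlap. It rose by 1.23 ± 0.15 on the log2 scale, or 2.35-fold (SE; limma, adjusted p = 0.000684). Ctsc, the gene of dipeptidyl peptidase I, which activates serine proteases of leukocytes, also showed no overlap. It ran from 11.22 to 11.66 in KHR tumours and from 10.46 to 11.19 in KR tumours, and rose by 0.72 ± 0.13 (adjusted p = 0.00575). The mean of 9 leukocyte markers was 6.45 to 6.78 in KHR tumours and 5.99 to 6.46 in KR tumours. Of the 9, 0 were called (2 higher and 0 lower at an unadjusted limma p under 0.05). Those 2 were S100a8, at 12.41 in KHR tumours and 11.33 in KR tumours, and Cd68, with changes of 1.08 and 0.53. Over the 9 markers the median change was 0.18, and 2 changes were negative. The part of the leukocyte mean in the result for Ctsc was not tested. The list of other proteases of the cornified layer thus had 2 of 9 higher and 0 lower, with a median change of 0.17.

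Of 15 membrane serine proteases and convertases, 2 rose and 0 fell, while 2.71% of all genes rose and 1.03% fell. At an unadjusted limma p under 0.05, 3 of the 15 were higher and 2 were lower, and the median change was 0.08. Tmprss11e, which encodes the squamous epithelial protease DESC1, averaged 11.14 ± 0.33 in KHR tumours and 10.37 ± 0.21 in KR tumours (SD, n = 6 each). It rose by 0.77 ± 0.15 (SE; limma, adjusted p = 0.0118), and 5 KHR tumours lay above all KR tumours. Tmprss11b, of the same gene cluster, was at 12.08 ± 0.19 in KHR tumours and 11.57 ± 0.23 in KR tumours, a rise of 0.51 ± 0.12 (adjusted p = 0.0373). This call was lost on leaving out any of 10 of the 12 tumours (all but KHR 2 and KR 4; adjusted p up to 0.0865), and median polish gave 0.29 (adjusted p = 0.126). Tmprss11a, also of that cluster, differed the other way, by -0.54 ± 0.15 (SE, limma adjusted p = 0.0653), with 4 KHR tumours below all KR tumours.

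Of 10 inhibitors, 0 passed (2 higher and 2 lower at an unadjusted p under 0.05), and the median change was -0.04. The serpin gene Serpinb6c and Cst6, which encodes cystatin M/E, an inhibitor of cathepsin L, had the smallest p. Serpinb6c differed by 0.78 ± 0.22 and Cst6 by 0.69 ± 0.22 (SE; limma, adjusted p = 0.0699 and 0.115). Cst6 passed without KR 3 (adjusted p = 0.0394) and with probesets combined by mean or median polish. Serpinb6c passed without KHR 3, KHR 4 or KR 4 (adjusted p down to 0.0361) and with dim genes left out of the test.

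Of 10 genes of substrates and of the receptor PAR2, 0 passed (1 higher and 1 lower at an unadjusted p under 0.05), with a median change of -0.04. Flg2, which encodes filaggrin 2, had the largest difference of the list and was the higher one. It stood at 5.86 ± 0.66 in KHR tumours and 5.01 ± 0.63 in KR tumours (SD, n = 6 each), a log2 difference of 0.84 ± 0.32 (SE; limma, adjusted p = 0.202; 95% interval 0.15 to 1.54), and 3 KHR tumours lay above all KR tumours. Dsg1a was the lower one. The corneodesmosome genes Dsg1a, Dsg1b, Dsc1 and Cdsn differed by -0.49 ± 0.15, -0.16 ± 0.12, -0.05 ± 0.09 and -0.07 ± 0.08 (SE; limma, adjusted p = 0.105 to 0.867). Dsg1a and Dsg1b are close paralogues, so signal may be shared between them. Flg, the filaggrin gene, differed by -0.03 ± 0.13. F2rl1, the gene of PAR2, which trypsin-like kallikreins can activate, stood at 7.76 ± 0.41 in KHR tumours and 7.37 ± 0.35 in KR tumours (SD, n = 6 each; adjusted p = 0.359). The cytokine genes Il1b and Il18 differed by 0.44 ± 0.26 and -0.18 ± 0.29 (SE; limma, adjusted p = 0.457 and 0.831). Camp, whose product is cut by kallikreins in human skin, was dim, at 3.91 ± 0.14 in KHR tumours and 3.94 ± 0.22 in KR tumours.

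**Figure D5:**
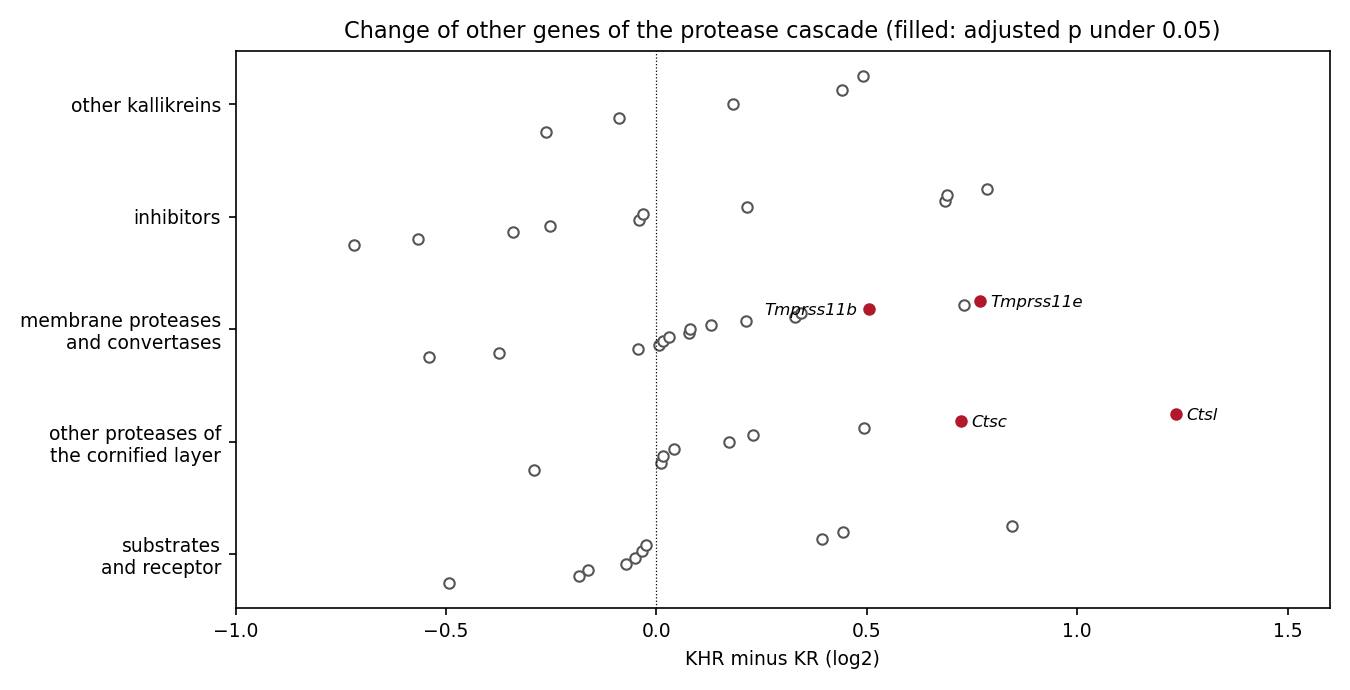
Log2 difference, KHR minus KR, of 49 other genes of the protease cascade in 5 lists, each point a gene; filled red points have an adjusted p under 0.05 over all genes. The 4 filled points are Tmprss11b, Tmprss11e, Ctsc and Ctsl, at 0.51, 0.77, 0.72 and 1.23.

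The genes whose deviations from their group means were most like those of Klk7 over the 12 tumours, among 11550 genes above the median level, were Tmprss11e (r = 0.90), Wdr20 (0.89), Nmt1 (0.89), Npy (0.89) and Desi2 (0.89). For Spink5 they were Tpm2 (0.94), Rars (0.89), Ifi203-ps (0.88), Ndufaf6 (0.84) and Zbtb18 (0.82). For St14 they were Spidr (0.90), Fam50a (0.89), Mpzl2 (0.88), Tuba1a (0.87) and Gpr182 (0.87). These are the highest of many values over few tumours and are given as a description.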

How the data were processed

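The deposited table held log2 intensities for 269751 probesets on 12 arrays, and per the submitters' processing notes Partek was used, with no version given. Background correction, normalization and build: not given in the sources used here. The range of values set the log base. Gene names came from GEO's platform annotation, with older symbols updated through RefSeq synonyms (GRCm38.p6); 233753 had 1 symbol. A gene's value was the median log2 intensity of its probesets, for 23102 genes. Groups were compared in limma 3.58.1 (lmFit, eBayes; R 4.3.3), two-sided, on all 12 arrays without covariates, with Benjamini-Hochberg adjustment over all genes and a threshold of 0.05; the fit was tested on simulated data. Intervals are limma's 95% intervals, unadjusted. The number of arrays limits precision, and there is no detection call. All 10 members were named, with genes of each pathway list past the threshold, the pair with the smallest p otherwise, and any substrate gene. Klk1, Klk4, Klk15, Tmprss11a and the markers are named beyond this rule, after their values were seen. Members and lists were chosen with earlier results of these data known. A2ml1 and Tmprss11bnl had no usable probeset. Alternatives were other probeset summaries, scalings, filters, fits and a rank test, and leaving out each array. Python 3.11.15 made tables and figures.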

Additional observations from a re-analysis of the deposited data

Results flagged for a closer look

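In 74 sets of 6 values (28 genes and 9 marker list means in each group), 5 had a tumour whose gap to the nearest other was large for the group's range, where chance gives about 1 in 20. Klk9 in KR 2 was 11.03, against 11.53 to 11.74 in the other KR tumours. Cst6 in KR 3 was 10.54, against 9.50 to 9.85. Tmprss11b in KHR 2 was 11.70, against 12.07 to 12.24. Camp in KR 2 was 4.34, against 3.70 to 3.94. The mean of 8 endothelial markers in KR 3 was 7.54, against 6.76 to 7.02. None of the 10 kallikrein and regulator genes was among them.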

How the results depend on the processing

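The calls of Klk6 and Klk7 held under all 22 alternatives other than the rank test, with changes of 1.04 to 1.56 for Klk6 and 0.87 to 1.21 for Klk7. Over the 10 genes, 210 of 220 such results kept their direction and side of the threshold; 2 were the calls of Klk11 and 8 were sign changes of Klk8. The exact rank test called 0 genes after adjustment, and so 0 of the 10 higher (3051 genes had an unadjusted p under 0.05). Leaving out dim genes gave 1 of the 10 lower, Klk11, and leaving out each array gave 0 to 1. The 863 genes called in all became 1445 with the mean over probesets, 555 with the Xist level as a covariate and 523 to 1085 on leaving out each array (531 without KR 2 and 523 without KHR 4). With the replicate number as a block, 925 genes were called, Klk6 and Klk7 among them, and 1184 probesets in place of 2389. Same-numbered tumours deviated together only weakly (r from -0.003 to 0.234). Tumours with different numbers were not compared in this way, so these values cannot show whether the numbers pair the tumours. The uncalled change of Klk8 was -0.046 with the mean over probesets, -0.016 with array medians subtracted, -0.012 with array weights, -0.022 with the Xist covariate and -0.034 by medians in the rank test, and -0.027 to 0.068 on leaving out each array. Other uncalled signs turned on leaving out arrays: Dsc1 ran from -0.089 to 0.010, Flg from -0.080 to 0.055, Camp from -0.071 to 0.057 and Il18 from -0.352 to 0.034. By medians in the rank test Cdsn was 0.0034, Flg 0.105 and Camp 0.021, and Cdsn was 0.014 with the mean over probesets. For the correlations, 2 alternatives (the mean over probesets and array medians subtracted) were chosen after seeing the data and also gave 0. With no detection call, dim probesets limit what the smaller changes can show. A narrowing of changes at high signal was not tested.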
